A study of Drosophila melanogaster with 33 samples.

Results

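The genes described here encode 9 factors of mRNA decapping, decay and miRNA silencing in *Drosophila melanogaster*: Dcp2, Dcp1, pcm, Ge-1, Edc3, tral, 4E-T, AGO1 and gw. They were chosen by name for their function, with earlier results of these data known, and are 9 of 16727 genes in the count tables. All 9 passed the filter on low counts in every comparison.

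Processing bodies, or P-bodies, are cytoplasmic granules of messenger RNA and protein in which factors that silence and degrade mRNA gather. In 5′ to 3′ decay a shortened poly(A) tail is followed by removal of the cap by the Dcp2 enzyme and its activators, and an exonuclease then digests the body of the mRNA. miRNAs bound to AGO1 recruit gw, the fly GW182 protein, which draws in deadenylases and leads the target into this same route. In neurons such granules are also known as stores of silenced mRNA.

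The study expressed Ataxin-2 (Atx2), an RNA-binding protein, fused to an RNA-editing enzyme domain to mark its targets by edited bases (TRIBE), and lowered Atx2 by RNA interference. RNA-seq counts were analysed in 3 Atx2 RNAi brain libraries, 3 Gal4 control brain libraries, 3 S2 cell libraries labelled Atx2 RNAi and 3 mock S2 libraries. The brain flies carried elav-Gal4, which acts in neurons, with the temperature-sensitive inhibitor tub-Gal80ts, so that UAS-Atx2-RNAi was switched on in adults by some days at a warm temperature. The controls had the driver without the RNAi transgene, and each brain library pooled several dissected brains, so glia and other cells that elav-Gal4 does not target are included in both groups. S2 cells, a cultured embryonic line with traits of hemocytes (blood cells), were transfected in repeated rounds with Atx2 dsRNA or, as mock, with GFP dsRNA. TRIBE lists came from brains of flies with the same driver system that expressed Atx2ΔLsm, Atx2ΔLsmAD, Atx2ΔmIDR, Atx2ΔcIDR, a form of the Lsm and LsmAD domains alone, or the unaltered Atx2 WT fusion, with 2 libraries each. The labels do not say that replicates were separate cultures or crosses, so the p-values measure only the spread between these samples.

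Gene counts summed to 13970745 to 14324466 in Atx2 RNAi brains, 11169973 to 13917685 in Gal4 control brains, 11293375 to 12150135 in S2 libraries labelled Atx2 RNAi and 12420646 to 16108727 in mock S2 libraries. Atx2 itself had 201, 252 and 264 CPM (read counts scaled to library size with TMM factors) in Atx2 RNAi brains, against 287, 302 and 316 CPM in Gal4 controls. That difference, -0.34 ± 0.12 (SE) in log2 fold change, missed the threshold in the main test (edgeR adjusted p = 0.0584). It was negative in 16 of 16 settings run and called in 2, DESeq2 and the fit without both replicates numbered 1. The paper reports a partial knockdown of Atx2 mRNA in these brains, given there as significant. In S2 cells Atx2 had 1002, 686 and 841 CPM in the libraries labelled Atx2 RNAi, against 228, 226 and 232 CPM in mock libraries, so Atx2 reads were 3.69-fold higher where the label says RNAi (adjusted p = 5.3e-11). For S2 cells treated with Atx2 dsRNA the paper reports less Atx2 protein on western blots, a measure of protein and not of reads. The reason for the high reads was not tested, and every S2 direction given here is that of libraries labelled Atx2 RNAi in which Atx2 counts were high. One brain library, Gal4 control replicate 1, stood apart: 34.6% of its reads fell in rows that name no gene, against 15.8% to 17.7% in the other brain libraries, and the brain log2 fold changes of the 9 genes are given with and without it.

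Other cell types also moved between the brain groups. Of the neuron markers, 8 of 9 were lower in Atx2 RNAi brains, with summed levels of 8998 to 10932 CPM against 16371 to 19710 CPM in Gal4 controls, although elav itself was not called (log2 fold change -0.22, adjusted p = 0.438). The glia markers were lower for 4 of 6 genes, at 4173 to 5120 CPM summed in Atx2 RNAi brains and 6402 to 7347 CPM in Gal4 controls. Fat body markers summed to 11022 to 23696 CPM in Atx2 RNAi brains and 1261 to 2269 CPM in Gal4 controls, with 5 of 8 higher and 2 lower. Hemocyte markers (1778 to 2303 CPM in Atx2 RNAi brains, 809 to 1982 CPM in Gal4 controls) were higher for 5 of 8 genes, photoreceptor markers (1206 to 1614 CPM and 959 to 997 CPM) for 3 of 8, and muscle markers (57.7 to 83.9 CPM and 314 to 342 CPM) were lower for 6 of 6. The part of these shifts in the levels of the 9 genes was not tested, and in such bulk libraries fewer cells of a type and less RNA per cell cannot be told apart. In S2 libraries 7 of 8 hemocyte markers passed the filter on low counts, and 4 were higher in the libraries labelled Atx2 RNAi. Hemocyte sums were 979 to 1021 CPM in those libraries and 901 to 931 CPM in mock. Fat body markers summed to 554 to 692 CPM and 786 to 1008 CPM in the same order, with 1 of 8 tested and called lower. Glia markers (218 to 246 CPM and 259 to 279 CPM) had 3 of 6 tested and 1 lower. Neuron markers (79.5 to 83.1 CPM and 79.2 to 82.3 CPM) had 3 of 9 tested and 1 higher. Photoreceptor markers summed to 153 to 171 CPM and 165 to 171 CPM. No reads were found for VAChT (neuron), trp, Arr1 and inaC (photoreceptor), Lsp2 (fat body) and Mlc1 (muscle).

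The first question was how the 9 mRNAs respond to Atx2 RNAi in the brain. Only gw passed the main test (edgeR with TMM factors), lower in Atx2 RNAi brains, and AGO1, its partner, lay just outside the threshold with a fold change of like size. None of the 9 was called higher, and their median log2 fold change was -0.19, against 0.06 over all genes tested. Negative values were held by 7 of 9 members and by 45.5% of all tested genes. Scaling by library size alone gave a median of 0.02 for the members and 0.27 for all genes, with 4 of 9 negative and Dcp1 called higher (log2 fold change 0.42, adjusted p = 0.0315) in place of gw. The 1 called of 9 stands beside 18.6% of 9197 tested genes that were called lower and 23.1% called higher (41.7% in either direction). DESeq2 called 2 of the 9 lower, beside 19.9% of all genes it tested. With only 9 genes these counts lie near the share of all genes and show nothing particular to the members.

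The gw gene, which encodes the GW182 scaffold that couples AGO1 to deadenylases, lies on chromosome 4 (dm6, 649041 to 660608, minus strand; FBgn0051992). Its levels were 615, 819 and 730.5 CPM in Atx2 RNAi brains, against 998, 883 and 975 CPM in Gal4 controls. All 3 Atx2 RNAi libraries lay below all 3 controls, with replicate 1 lowest. The mean was 722 ± 102 CPM in Atx2 RNAi brains and 952 ± 60.9 CPM in Gal4 controls (SD, n = 3 each), for a log2 fold change of -0.40 ± 0.13 (SE with 95% interval -0.71 to -0.09, edgeR adjusted p = 0.0453), so gw fell by 24.2%. The call did not hold when single libraries were left out: it was lost without Gal4 control replicate 1 (-0.38, adjusted p = 0.0865), control replicate 2 (-0.48, 0.0550), control replicate 3 (-0.38, 0.107), Atx2 RNAi replicate 1 (-0.29, 0.104) or Atx2 RNAi replicate 3 (-0.41, 0.114), and kept without Atx2 RNAi replicate 2 (-0.50, adjusted p = 0.0438). The direction was negative in 16 of 16 settings run, the call held in 4 of them, and scaling by library size alone gave -0.19 (adjusted p = 0.197) with the median of all genes at 0.27.

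AGO1, the Argonaute protein that carries most miRNAs in flies, lies on chromosome arm 2R (13943387 to 13958089, minus strand; FBgn0262739). It had 809.6, 976 and 934 CPM in Atx2 RNAi brains, against 1319, 1068 and 1115 CPM in Gal4 controls. The groups did not overlap, and control replicate 1, the library that stood apart, was the highest of the 6. The means were 907 ± 86.7 CPM in Atx2 RNAi brains and 1167 ± 134 CPM in Gal4 controls (SD, n = 3 each), for a log2 fold change of -0.36 ± 0.13 (SE with 95% interval -0.67 to -0.06, edgeR adjusted p = 0.0590). Without control replicate 1 it was -0.28 (adjusted p = 0.123), and DESeq2 on all 6 libraries called it (-0.41, adjusted p = 0.00776).

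**Figure D1:**
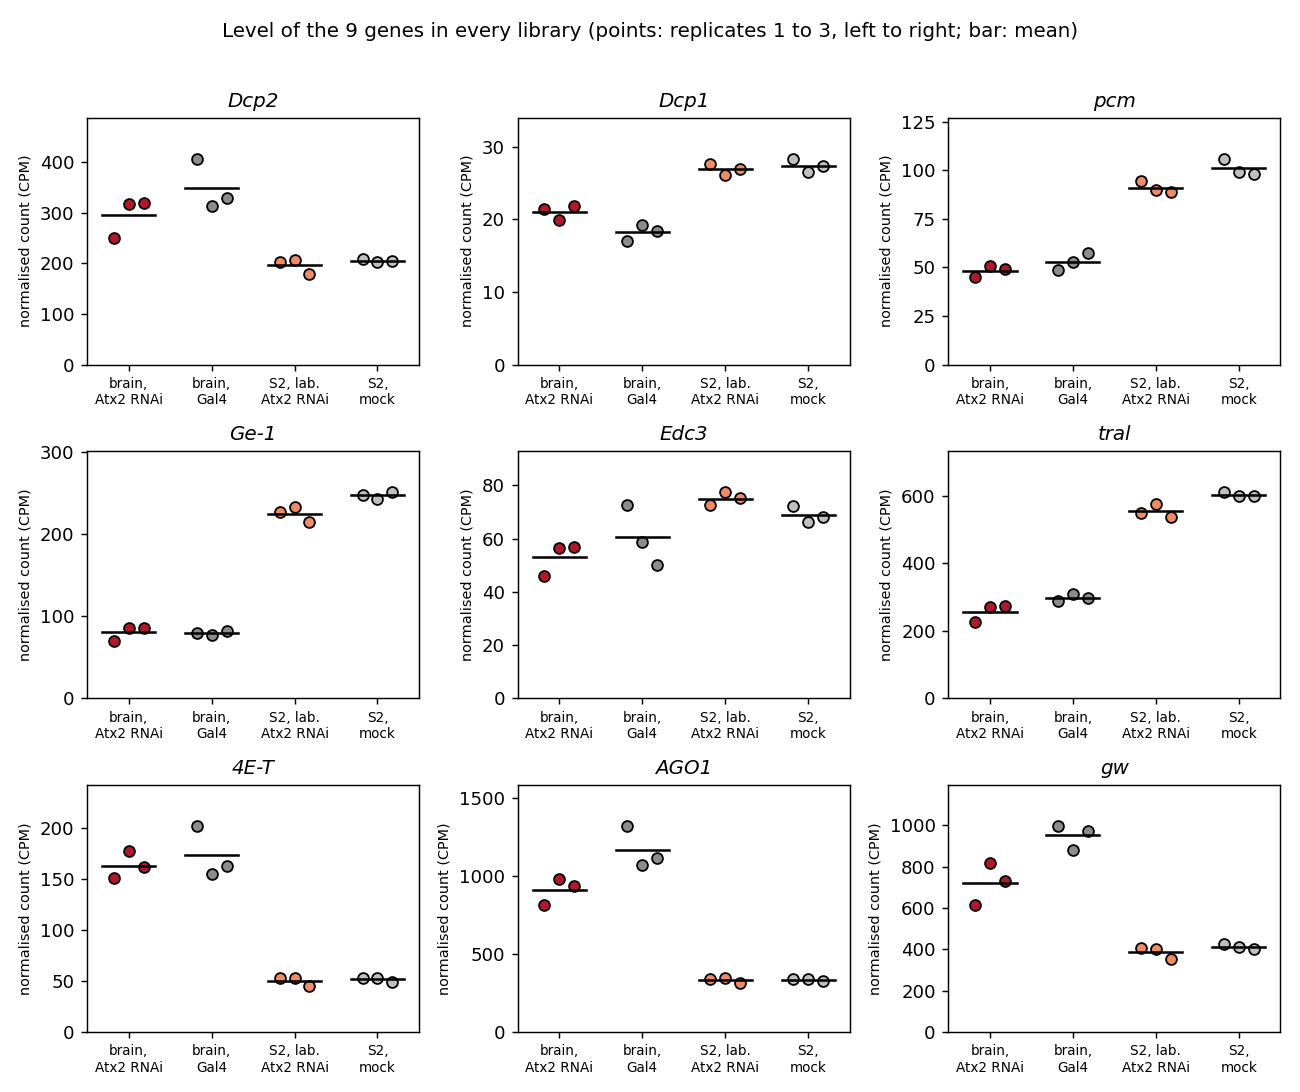
Normalised count (CPM, linear axis from 0) of the 9 genes in each library, with Atx2 RNAi brains, Gal4 control brains, S2 cells labelled Atx2 RNAi and mock S2 cells from left to right; points are replicates 1 to 3 and the bar is their mean. AGO1 and gw show 3 Atx2 RNAi brain points below the 3 Gal4 control points, while in S2 cells pcm, Ge-1 and tral lie below mock by a small margin.

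Of the decapping enzyme and its coactivators, none was called in the brain. Dcp2, the enzyme that removes the cap (3L, 15818734 to 15826423, minus strand; FBgn0036534), had 249, 318 and 319 CPM in Atx2 RNAi brains, against 406, 313 and 329 CPM in Gal4 controls. The ranges overlapped, and the log2 fold change was -0.24 ± 0.14 (SE, 95% interval -0.58 to 0.09, adjusted p = 0.208). Without control replicate 1, the highest library, it was -0.13 (adjusted p = 0.442). Dcp1, its small activating partner (2R, 23888764 to 23890276, minus strand; FBgn0034921), was the single member whose Atx2 RNAi libraries all lay above the controls, at 21.5, 19.96 and 21.8 CPM in Atx2 RNAi brains and 17.0, 19.2 and 18.4 CPM in Gal4 controls. That difference was 0.21 ± 0.11 (SE, log2, 95% interval -0.04 to 0.46) and was not called (adjusted p = 0.153). Among all tested genes 32.3% had every Atx2 RNAi library above every control and 25.4% had every one below.

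Ge-1, a scaffold that helps Dcp1 and Dcp2 to act together (2L, 11095150 to 11100888, minus strand; FBgn0283682), was level between the groups, at 69.3, 85.3 and 85.9 CPM in Atx2 RNAi brains and 79.3, 77.4 and 81.3 CPM in Gal4 controls (log2 fold change 0.01 ± 0.11 SE, 95% interval -0.24 to 0.27). Edc3, an enhancer of decapping (3L, 17525333 to 17529861, minus strand; FBgn0036735), had 45.9, 56.5 and 56.7 CPM in Atx2 RNAi brains, against 72.5, 58.6 and 50.2 CPM in Gal4 controls. Its controls spread more widely than the groups differed (-0.19 ± 0.16 SE, 95% interval -0.55 to 0.17). The exonuclease gene pcm, the fly Xrn1, which digests decapped mRNA (X, 19485759 to 19492011, minus strand; FBgn0020261), had 45.0, 50.6 and 49.1 CPM in Atx2 RNAi brains and 48.5, 52.6 and 57.2 CPM in Gal4 controls. The ranges overlapped, with a log2 fold change of -0.13 ± 0.10 (SE; 95% interval -0.37 to 0.11, adjusted p = 0.333).

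The translational repressors of the group gave no call either. The gene tral, whose protein, of the Lsm domain family, binds the helicase me31B (3L, 12515059 to 12520954, plus strand; FBgn0041775), had 226, 270.1 and 273 CPM in Atx2 RNAi brains and 287, 309.9 and 298 CPM in Gal4 controls. Here the groups did not overlap, and the log2 fold change was -0.22 ± 0.11 (SE, 95% interval -0.46 to 0.03, adjusted p = 0.129). 4E-T, which binds the cap-binding protein eIF4E and keeps mRNA from being translated (chromosome 4, 951542 to 958392, minus strand; FBgn0052016), had 151, 177 and 161 CPM in Atx2 RNAi brains, against 202, 154 and 162 CPM in Gal4 controls. The groups overlapped (-0.09 ± 0.13 SE, log2, 95% interval -0.38 to 0.21).

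The 3 Atx2 RNAi brain libraries were not alike for these genes. Replicate 1 was the lowest of the 3 for 8 of 9 members, Dcp1 being the exception, and its median log2 difference from the control mean was -0.40, against -0.10 in replicate 2 and -0.10 in replicate 3. Without that library the median of the 9 log2 fold changes was -0.09, without both replicates numbered 1 it was -0.0098 with 5 of 9 negative, and without Gal4 control replicate 1 it was -0.13. Without that control library 6 members had -0.20 (pcm), -0.052 (Edc3), -0.26 (tral), -0.00087 (Ge-1), 0.023 (4E-T) and 0.15 (Dcp1), with adjusted p between 0.106 and 0.996. With 3 libraries against 3, an exact permutation test of one gene cannot give a two-sided p below 0.1. The calls rest instead on a count model that draws the spread of each gene towards that shared across genes.

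The second question was whether the S2 libraries labelled Atx2 RNAi show the same. Here pcm, Ge-1 and tral were called lower by small margins, and none of the 9 was called higher in the main fit. Of 7567 tested genes 14.7% were called lower and 14.4% higher, 29.2% in all. The median of the 9 log2 fold changes was -0.07, against 0.01 over all genes, and 8 of 9 were negative, as were 48.4% of all genes.

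For pcm the levels were 94.5, 89.8 and 88.6 CPM in S2 libraries labelled Atx2 RNAi and 106, 98.9 and 98.2 CPM in mock libraries. The groups did not overlap, and pcm fell by 9.78% (log2 fold change -0.15 ± 0.04 SE, edgeR adjusted p = 0.0182). Ge-1 had 227, 233 and 214 CPM in the libraries labelled Atx2 RNAi, against 247, 243 and 251 CPM in mock, and fell by 8.95% (-0.14 ± 0.04 SE, adjusted p = 0.0156). The tral mRNA had 551, 577 and 537 CPM in libraries labelled Atx2 RNAi and 611, 601 and 601 CPM in mock, and fell by 8.18% (-0.12 ± 0.04 SE, adjusted p = 0.0211). In each of the 3 genes every library labelled Atx2 RNAi was below every mock library, which held for 22% of all tested genes, while 21.8% had every one above. With upper quartile scaling Ge-1 alone of the 3 stayed called lower (-0.10, adjusted p = 0.0464), with pcm at -0.12 (0.0559) and tral at -0.09 (0.0737), and with DESeq2 pcm was not called (-0.16, 0.0598). The calls also depended on single libraries: pcm lost its call without mock replicate 1 (-0.11, adjusted p = 0.111), and Ge-1 without mock replicate 1 (-0.13, 0.0645) or 3 (-0.12, 0.0717). The tral call was lost without mock replicate 1 (-0.11, 0.0974), mock replicate 2 (-0.13, 0.0696), mock replicate 3 (-0.13, 0.0591) or replicate 1 of those labelled Atx2 RNAi (-0.12, 0.0821).

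Edc3 was the one member on the other side in S2 cells, at 72.5, 77.3 and 75.1 CPM in libraries labelled Atx2 RNAi, against 72.2, 66.1 and 68.3 CPM in mock. The difference was 0.12 ± 0.05 (SE, log2) and missed the threshold (adjusted p = 0.0567), passing it, as higher, without mock replicate 1 (0.16, adjusted p = 0.0452), with upper quartile scaling (0.16, 0.0197) and with library size alone (0.14, 0.0386). The remaining 5 were not called: Dcp2 (202, 207 and 179 CPM labelled Atx2 RNAi, 209, 203 and 205 CPM mock; log2 fold change -0.07, adjusted p = 0.315), and Dcp1, 4E-T, AGO1 and gw, whose log2 fold changes were between -0.09 and -0.01. Of the silencing pair with the most negative fold changes in Atx2 RNAi brains, AGO1 was close to level here. The gw value was slightly negative in 16 of 16 settings and called in 0. AGO1 had 342, 342 and 309.6 CPM in libraries labelled Atx2 RNAi, against 338, 336 and 325 CPM in mock (95% interval of the log2 difference -0.10 to 0.08), and gw had 407, 402 and 352 CPM against 426, 409 and 399 CPM in mock (-0.19 to 0.02). In these cells replicate 3 of those labelled Atx2 RNAi was the lowest of its group for 7 of 9 members.

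**Figure D2:**
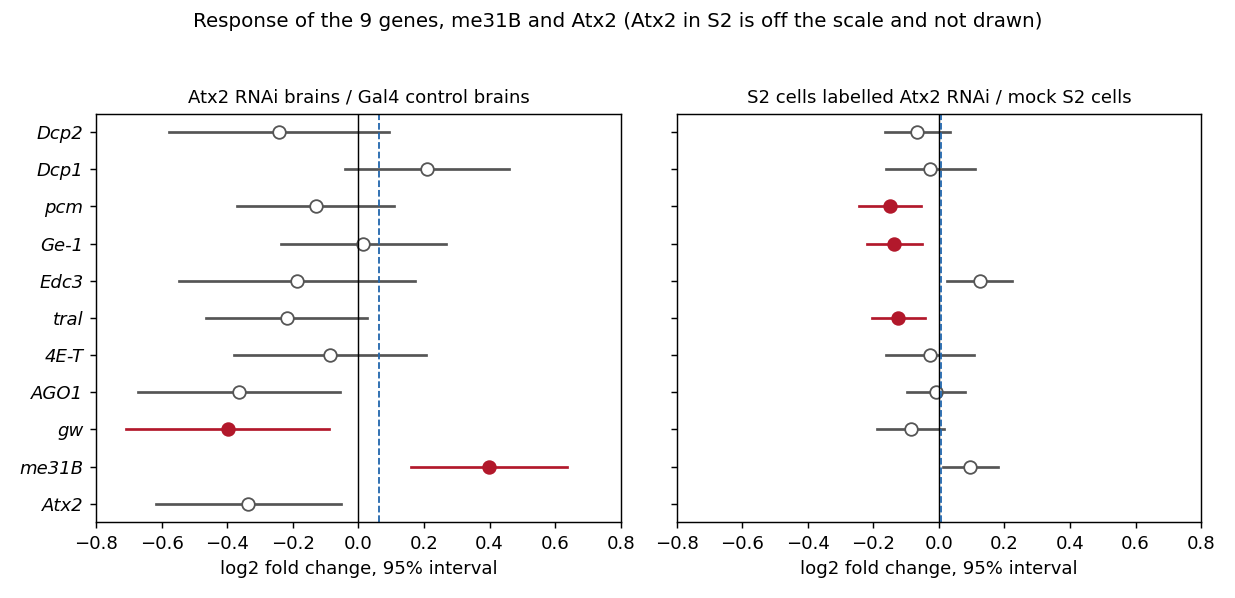
Log2 fold change (horizontal axis) with its 95% interval for the 9 genes, me31B and Atx2, in Atx2 RNAi over Gal4 control brains (left) and in S2 cells labelled Atx2 RNAi over mock (right); filled red points have an edgeR adjusted p under 0.05 and the dashed line is the median of all tested genes. The brain intervals are wide, with gw at -0.40 called, and the S2 intervals are narrow, with pcm, Ge-1 and tral called at -0.15 to -0.12.

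Whether the responses differ between brain and S2 cells was tested by an interaction over all 12 libraries, in which 25.4% of 9771 genes were called, 8.84% with a lower and 16.6% with a higher brain response. None of the 9 was called with edgeR, though at an unadjusted p under 0.05 (37.3% of all genes) there were 2, Dcp1 (difference of log2 fold changes 0.24, adjusted p = 0.121) and AGO1 (-0.36, 95% interval -0.68 to -0.03, adjusted p = 0.1003). DESeq2 called 2, AGO1 (-0.46, adjusted p = 0.00682) and gw (-0.42, adjusted p = 0.0317), where edgeR gave gw -0.31 (95% interval -0.66 to 0.03, adjusted p = 0.168). Scaling by library size alone called Dcp1 (0.43, adjusted p = 0.0250) and Ge-1 (0.34, adjusted p = 0.0240). In the main edgeR fit the gw call in brain and the pcm, Ge-1 and tral calls in S2 cells are not shown to differ between the systems, and for gw and Ge-1 this depended on the tool or the scaling. The S2 side of this contrast is the one with high Atx2 counts where the label says RNAi.

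Between brain and S2 cells the levels themselves differed strongly. Tissue and experiment (animals or culture, with or without dsRNA transfection) cannot be told apart in this contrast. In Gal4 control brains over mock S2 cells 8 of 9 members were called, beside 89.4% of 9771 genes tested (42.8% lower and 46.6% higher in brain), so a call says little here and the sizes matter. AGO1 was 4.97-fold higher in brain (log2 fold change 2.31 ± 0.11 SE, edgeR adjusted p = 2.86e-10), 4E-T 4.78-fold (2.26 ± 0.12 SE, 9.57e-10), gw 3.28-fold (1.72 ± 0.11 SE, 9.35e-09) and Dcp2 2.41-fold (1.27 ± 0.12 SE, 4.84e-07). Ge-1 was lower in brain, at 0.456 of the S2 level (-1.13 ± 0.09 SE, adjusted p = 3.91e-08), as were tral (-0.51 ± 0.08 SE, 5.04e-05) and pcm (-0.43 ± 0.08 SE, 0.000131). Members of one complex thus stood on opposite sides, Dcp2 higher and its scaffold Ge-1 lower in brain. Dcp1 was not called in the main fit (-0.08, adjusted p = 0.300). It was called lower in brain with upper quartile scaling (-0.42, edgeR adjusted p = 0.000192) and library size alone (-0.68, 1.08e-05). The pcm call was lost with DESeq2 (-0.16, adjusted p = 0.0690). Edc3 was called at 0.31 (adjusted p = 0.0284) but not without Gal4 control replicate 1 (0.15, adjusted p = 0.150). Its sign turned under upper quartile scaling (-0.03), and with library size alone it was called lower (-0.29, edgeR adjusted p = 0.0231). Scaling moved the median of all genes from 0.11 to between -0.48 and 0.84. Relative to that median, AGO1 stayed at 1.75 to 2.27, 4E-T at 1.69 to 2.25, gw at 1.15 to 1.65, Dcp2 at 0.70 to 1.23, Ge-1 at -1.70 to -1.23, tral at -1.08 to -0.58 and pcm at -0.997 to -0.44. On the same scale Dcp1 lay at -0.65 to -0.12 and Edc3 at -0.25 to 0.28.

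To compare the genes with each other, levels were divided by the length of their merged exons. In Gal4 control brains gw led with 155 ± 9.91 CPM per kb (SD, n = 3, as for all values here), followed by AGO1 with 141 ± 16.2, tral with 71.6 ± 2.73, Dcp2 with 58.5 ± 8.36 and 4E-T with 46.8 ± 6.83 CPM per kb. Ge-1 (16.1 ± 0.403), Edc3 (14.9 ± 2.77), Dcp1 (12.04 ± 0.721) and pcm (9.80 ± 0.809 CPM per kb) formed a lower set. Neighbours whose ranges overlapped were gw and AGO1, Dcp2 and 4E-T, Ge-1 and Edc3, and Edc3 and Dcp1. The silencing genes gw and AGO1 stood at percentiles 95.9 and 95.2 of tested brain genes per kb, while the exonuclease gene pcm was at 44.3.

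In mock S2 cells, where tissue and experiment again differ together from the brains, the order was another. There tral led with 145 ± 1.36 CPM per kb, then gw with 66.9 ± 2.24, Ge-1 with 50.05 ± 0.803, AGO1 with 40.2 ± 0.898 and Dcp2 with 34.4 ± 0.511 CPM per kb, none of which overlapped with the next. The genes pcm (18.8 ± 0.789), Dcp1 (18.1 ± 0.612), Edc3 (16.9 ± 0.756) and 4E-T (13.9 ± 0.619 CPM per kb) were low, with pcm overlapping Dcp1 and Dcp1 overlapping Edc3. The activator Dcp1 was thus below the enzyme Dcp2 in both, by a wider margin in brain.

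**Figure D3:**
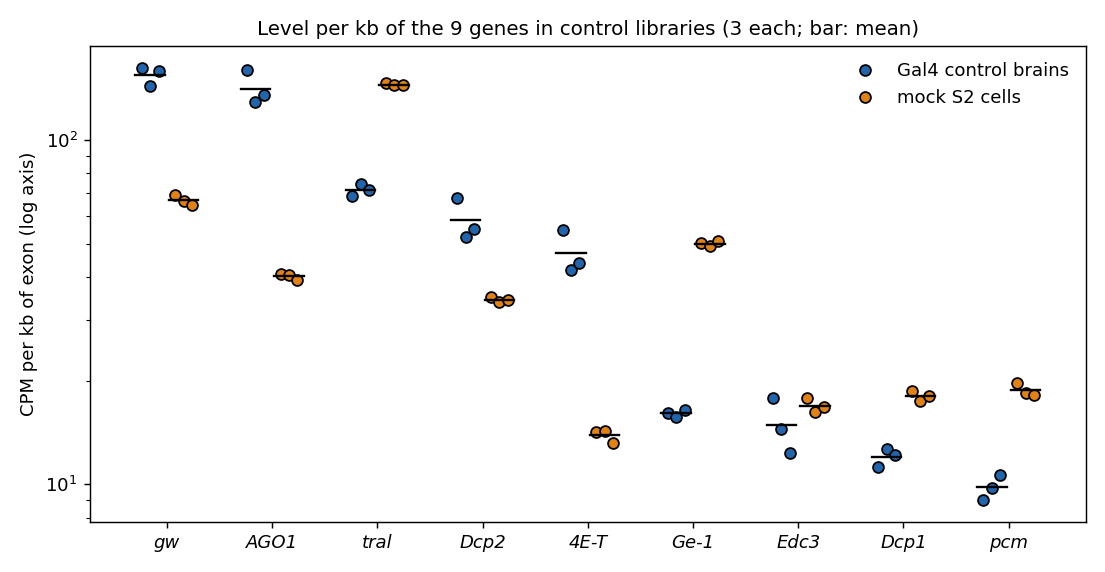
Level per kb of exon (CPM per kb, log axis) of the 9 genes in the 3 Gal4 control brain and the 3 mock S2 libraries; points are libraries and bars are means. In brain gw and AGO1 are highest, at 155 and 141 CPM per kb, and in S2 cells tral is highest at 145 CPM per kb.

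Over the 12 RNA-seq libraries, the gene most like each member in its log2 level was sought among 7010 genes. The closest were Pka-C1 for AGO1 (Pearson r = 0.999), MED26 for 4E-T (0.999), Nup358 for Ge-1 (0.999), CG11148 for gw (0.999), PlexA for Dcp2 (0.997), nocte for tral (0.994) and bif for pcm (0.980). Dcp1 and Edc3, which differ least between brain and S2 cells in the main fit, had lower best values, 0.895 with CG32039 and 0.923 with CG16742. These points share the large difference between brain and S2 libraries, and the values are descriptions only.

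Other parts of the same route were read from lists of partner genes. The decapping and 5′ decay partners, 16 of 17 tested (LSm-4 had no reads in any of the 12 libraries), included 6 called higher and 1 called lower in Atx2 RNAi brains, beside 23.1% called higher and 18.6% called lower of all tested genes, with a median log2 fold change of 0.26 against 0.06 over all genes. Those higher were the helicase gene me31B, LSm1, LSm3, CG9344 (LSm6), LSm7 and Upf3, and the one lower was Smg6, an endonuclease of nonsense-mediated decay. LSm1, LSm3, CG9344 and LSm7 encode subunits of the ring that binds shortened tails before decapping. The helicase gene me31B had 134, 126 and 125 CPM in Atx2 RNAi brains, against 109, 92.8 and 90.1 CPM in Gal4 controls. Its groups did not overlap, and it rose (log2 fold change 0.40 ± 0.10 SE, adjusted p = 0.0177). The value of tral, the partner it binds, was negative but not called (-0.22, edgeR adjusted p = 0.129). The me31B call was lost without Gal4 control replicate 2 (0.33, adjusted p = 0.0775), control replicate 3 (0.35, 0.0621) or Atx2 RNAi replicate 1 (0.37, 0.0569), and was kept without control replicate 1 (0.47, adjusted p = 0.00514).

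LSm3 had 7.11, 5.35 and 5.22 CPM in Atx2 RNAi brains, against 3.09, 2.84 and 3.44 CPM in Gal4 controls, and rose (log2 fold change 0.92 ± 0.21 SE, adjusted p = 0.0115). This call held in 6 of 6 fits that each left out 1 library. Upf3, a nonsense-mediated decay factor, had 16.1, 16.3 and 15.3 CPM in Atx2 RNAi brains and 5.18, 10.2 and 9.92 CPM in Gal4 controls (0.90 ± 0.24 SE, adjusted p = 0.0202). The Upf3 call was lost when any one of the Atx2 RNAi libraries was left out, with adjusted p up to 0.0668. In S2 libraries labelled Atx2 RNAi 3 partners were called higher and 2 lower of 16, beside 14.4% and 14.7% of all tested genes. The 3 became 0 with DESeq2, 0 without mock replicate 3 or replicate 1 of those labelled Atx2 RNAi, 1 without mock replicate 1, 5 with library size alone and 6 with upper quartile scaling. LSm3 was again higher, at 54.3, 50.2 and 49.5 CPM in libraries labelled Atx2 RNAi and 46.2, 46.3 and 41.1 CPM in mock (0.21 ± 0.06 SE, adjusted p = 0.0134), a call lost without mock replicate 3 or replicate 1 of those labelled Atx2 RNAi (adjusted p up to 0.0916). The others were CG2091, the scavenger decapping gene Dcps, and Smg6, both higher, with Patr-1 and nonC (Smg1) lower. CG2091 had 38.0, 36.3 and 38.5 CPM in libraries labelled Atx2 RNAi, against 32.5, 33.9 and 33.1 CPM in mock (0.18 ± 0.06 SE, adjusted p = 0.0280), and its call was lost in 4 of 6 single-library fits, those without mock replicate 1 or 3 or replicates 1 or 3 of those labelled Atx2 RNAi (adjusted p up to 0.0865).

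Of the 10 further small RNA genes, 1 was called higher and 1 lower in Atx2 RNAi brains, beside 23.1% and 18.6% of all tested genes, with a median of 0.06, and none in S2 cells. The siRNA factor AGO2 had 204, 232 and 232 CPM in Atx2 RNAi brains, against 282, 275 and 269.6 CPM in Gal4 controls (-0.31 ± 0.09 SE, log2, adjusted p = 0.0324). Its call was lost in 5 of 6 single-library fits and kept only without Gal4 control replicate 1 (adjusted p between 0.0428 and 0.0776). Its loading partner r2d2 was on the other side, at 31.3, 32.8 and 32.3 CPM in Atx2 RNAi brains and 26.5, 23.1 and 22.5 CPM in Gal4 controls (0.42 ± 0.11 SE, adjusted p = 0.0166). The r2d2 call was lost without Gal4 control replicates 2 or 3 or Atx2 RNAi replicates 2 or 3 (adjusted p up to 0.0711).

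Deadenylase genes, which act before decapping, had 3 of 10 called lower and 1 higher in Atx2 RNAi brains (median -0.15), beside 18.6% lower and 23.1% higher of all tested genes. Not1, the scaffold of the CCR4-NOT complex, had 330.1, 512 and 503 CPM in Atx2 RNAi brains, against 816, 598 and 617 CPM in Gal4 controls (-0.59 ± 0.20 SE, log2, adjusted p = 0.0464). Its highest library was control replicate 1 and its lowest Atx2 RNAi replicate 1, and the call was lost in 5 of 6 single-library fits, kept only without Gal4 control replicate 2 (adjusted p between 0.0497 and 0.111). PAN2 (-0.27, adjusted p = 0.0468) and its partner CG11486, the fly PAN3 (-0.43, adjusted p = 0.00670), were the other 2 called lower. Not10 had 27.6, 27.2 and 25.1 CPM in Atx2 RNAi brains, against 12.8, 15.97 and 15.4 CPM in Gal4 controls (0.85 ± 0.12 SE, adjusted p = 0.00213), and held its call in 6 of 6 single-library fits. In S2 cells 1 deadenylase gene was called in each direction, Rcd-1 at 138, 142 and 147 CPM in libraries labelled Atx2 RNAi and 133, 123 and 125 CPM in mock (0.16 ± 0.04 SE, adjusted p = 0.00779), and CG11486 at 201, 220.0 and 206 CPM in libraries labelled Atx2 RNAi and 226, 223 and 232 CPM in mock (-0.12 ± 0.04 SE, adjusted p = 0.0369). The Rcd-1 call held in 6 of 6 single-library fits, and that of CG11486 was lost without any one mock replicate or replicate 1 of those labelled Atx2 RNAi (adjusted p up to 0.180).

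The 3′ to 5′ decay genes, of the exosome and SKI complexes, had 4 of 11 called higher and none lower in Atx2 RNAi brains, beside 23.1% and 18.6% of all tested genes, with a median of 0.53, and none called in S2 cells. Csl4, an exosome cap subunit, had 13.6, 12.6 and 13.5 CPM in Atx2 RNAi brains, against 6.67, 6.34 and 6.10 CPM in Gal4 controls (1.06 ± 0.13 SE, log2, adjusted p = 0.00110), a call held in 6 of 6 single-library fits. Rrp4 had 5.19, 5.95 and 5.48 CPM in Atx2 RNAi brains and 1.39, 3.51 and 2.42 CPM in Gal4 controls (1.16 ± 0.31 SE, adjusted p = 0.0209), and lost its call without Gal4 control replicate 3 or any one Atx2 RNAi replicate (adjusted p up to 0.0660). Rrp42 and Dis3 were the other 2. These list counts depended on single libraries: leaving out 1 brain library at a time gave 1 to 4 exosome and SKI genes called higher, 2 to 7 decapping partners higher and 1 to 4 deadenylase genes lower. Without Atx2 RNAi replicate 1 these were 1, 2 and 1, and without Gal4 control replicate 1 they were 4, 7 and 4. Scaling by library size alone, with the median of all genes at 0.27, gave 8, 8 and 0.

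**Figure D4:**
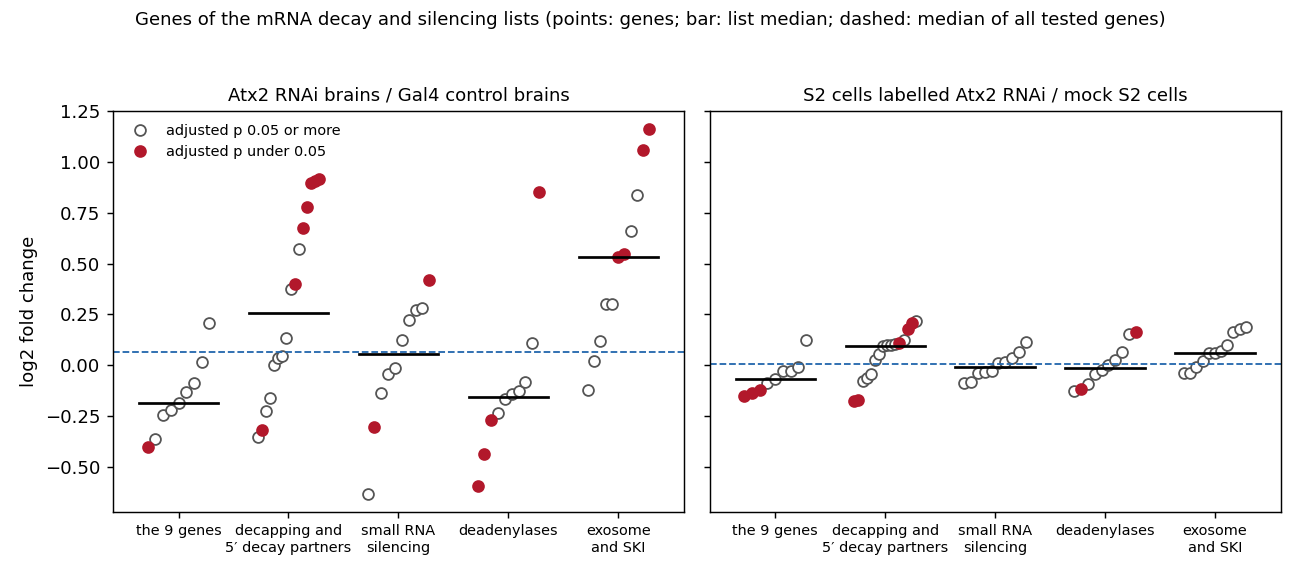
Log2 fold change (vertical axis) of the 9 genes and of the partner genes in 4 lists, for Atx2 RNAi over Gal4 control brains (left) and S2 cells labelled Atx2 RNAi over mock (right); each point is a gene, filled red where the edgeR adjusted p is under 0.05, the bar is the list median and the dashed line the median of all tested genes. In brain the 9 genes have a median of -0.19, below the dashed line at 0.06, and the exosome and SKI genes one of 0.53.

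The TRIBE lists give, for each library, positions with at least 15% of reads edited by the Atx2 fusion. No member was listed in both libraries of any of the 6 forms. The lists held 940 and 884 positions for Atx2ΔLsm, 396 and 511 for Atx2ΔLsmAD, 493 and 286 for Atx2ΔmIDR, 88 and 116 for Atx2ΔcIDR, 96 and 87 for the Lsm and LsmAD domains alone, and 512 and 471 for Atx2 WT. Of the 9197 brain-tested genes the share listed in both libraries was 4.13% for Atx2ΔLsm, 1.85% for Atx2ΔLsmAD, 1.72% for Atx2ΔmIDR, 0.424% for Atx2ΔcIDR, 0.37% for the Lsm and LsmAD domains alone and 2.69% for Atx2 WT. Shares this low leave fewer than 1 listed gene among 9.

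Single libraries of Atx2ΔLsm listed 3 members at 1 position each, and no other form listed any. The tral position lay in its 3′UTR (3L, 12520228), at base 1077 of 1803 and within 2 of 9 annotated transcripts, with 19.8% of reads edited in replicate 1. The Ge-1 position lay at base 70 of its 538-base 3′UTR (2L, 11095618), in both annotated transcripts, with 17.4% edited in replicate 2. The 4E-T position lay in the coding sequence of all 4 transcripts (chromosome 4, 951887), with 22.2% edited in replicate 2. These were ordinary values, since 39.6%, 26.8% and 57.7% of the positions in their own libraries were lower. In either library 10.7% of brain-tested genes were listed for Atx2ΔLsm, 5.48% for Atx2ΔLsmAD, 4.93% for Atx2ΔmIDR, 1.4% for Atx2ΔcIDR, 1.23% for the Lsm and LsmAD domains alone and 5.35% for Atx2 WT. The Atx2 WT libraries were sequenced without strand information and with another kit and read length than the altered forms, so form and sequencing cannot be told apart. With 2 libraries a form, no test was made. The lists give no read numbers, so beyond the minimum coverage that the authors required the depth behind each percent is unknown. A position left off a list may have had too few reads, or been edited below the authors' minimum.

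Listing also went with level. Of the 920 brain genes in the highest decile of CPM, 27.2% were listed in either Atx2ΔLsm library and 17.6% in either Atx2 WT library, and in the fifth decile from the bottom these shares were 7.93% and 3.37%. Dcp2, tral, AGO1 and gw were in the highest decile, 4E-T in the ninth, Ge-1 in the eighth, pcm and Edc3 in the seventh and Dcp1 in the fifth. Of the 4 in the highest decile, tral alone was listed. The 3′UTRs of the members were long, with a median of 1216 bases for the longest annotated one against 328 over 8788 brain-tested genes, and 7 of 9 were above that median. AGO1 had the longest, at 4585 bases, and no position listed under its name, while Ge-1, with 538, had one. One position within the AGO1 span (2R, 13954690, 16% in Atx2ΔLsm replicate 2) was listed under CG33155 and mRpL53, which overlap AGO1 on the opposite strand by 196 and 33 exon bases, and it was not counted for AGO1.

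**Figure D5:**
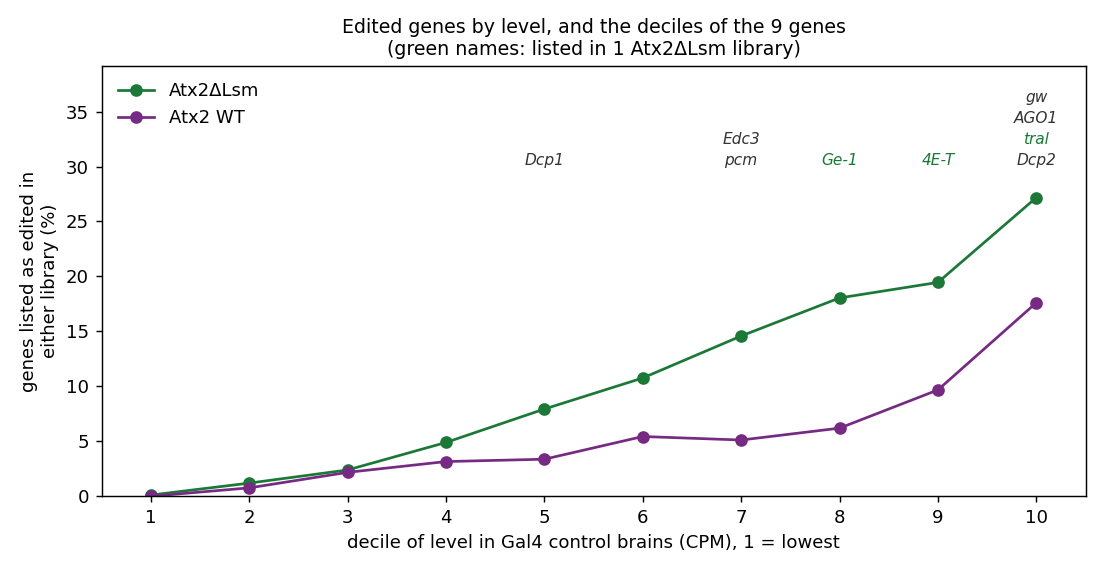
Share of genes listed as edited in either library (vertical axis, %) by decile of level in Gal4 control brains (horizontal axis, 1 lowest) for Atx2ΔLsm and Atx2 WT, with the 9 genes named above their decile. The share is 27.2% for Atx2ΔLsm and 17.6% for Atx2 WT in the highest decile, which holds Dcp2, tral, AGO1 and gw, and the green names are the 3 genes listed in 1 Atx2ΔLsm library.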

How the data were processed

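Raw counts per gene, 1 table per library, were deposited by the authors, who aligned reads to dm6 with STAR and counted them on the reverse strand with HTSeq. TRIBE percent values were made by the authors with TopHat2 by comparing each position with control brains, keeping positions above minimums of coverage and of 15% editing. The annotation they counted with is not given in the sources used here, and 16514 of 16727 symbols (98.7%) matched Ensembl release 115 (BDGP6 release 6.54), which gave positions and exon lengths.

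Rows that name no gene were left out of library sizes and tests. They held 15.8% to 17.7% of reads in 5 brain libraries, 34.6% in Gal4 control replicate 1 and 13.5% to 15.7% in S2 libraries. Counts were tested with the quasi-likelihood test of edgeR 4.0.16 (limma 3.58.1, R 4.3.3) with TMM factors, filterByExpr with a minimum count of 10 and Benjamini-Hochberg adjustment over all tested genes at 0.05, checked on simulated counts. Brain and S2 libraries were fitted apart, and together (12 libraries) for the interaction and for brain against S2. Alternatives were DESeq2 1.42.0, upper quartile and library size scaling, no filter, a CPM minimum of 1 in 3 libraries, a replicate block and leaving out libraries. Intervals are at 95%. Every pair of replicates differed beyond sampling noise. Edited positions were only described, since there are 2 libraries a form.

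The members and gene lists were chosen with earlier results of these data known. Partner genes given with their values were, per list and comparison, at most the 2 with the largest log2 fold change in either direction among those called with groups that do not overlap, and me31B; the other called genes were named after their values were seen. The 9 samples with no file used here (TRIBE in S2 cells, untransfected S2 cells and the TRIBE control brains) were not analysed here.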

Additional observations from a re-analysis of the deposited data

Results flagged for a closer look

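None of the 9 members was called in the edgeR interaction between brain and S2 cells, though DESeq2 called AGO1 and gw. Of all 9771 tested genes 25.4% were called. Among Atx2, w, me31B and the partner genes given with their values, the only others examined here, 9 were called. Not called were me31B, AGO2, CG2091, Not1 and Rcd-1 (edgeR adjusted p 0.0736 to 0.880). The partners other than me31B had been picked for calls in brain or S2 cells in these same libraries. Their number called therefore cannot be set against the share of all genes. The 9 are given as the brain log2 fold change minus that in S2 libraries labelled Atx2 RNAi, with edgeR adjusted p over all tested genes. Among partners of the decay route, Csl4 differed by 1.06 (adjusted p = 0.000174), Rrp4 by 1.12 (0.00547), Not10 by 0.83 (0.000625), Upf3 by 0.80 (0.0255), LSm3 by 0.71 (0.0129), r2d2 by 0.39 (0.0299) and CG11486 by -0.32 (0.0257). Atx2 differed by -2.22 (adjusted p = 1.1e-05), being high in the S2 libraries labelled Atx2 RNAi. The eye colour gene w, a usual marker of fly transgenes, differed by 3.27 (adjusted p = 0.0455): it had 644, 402 and 533 CPM in Atx2 RNAi brains, against 77.5, 74.8 and 73.5 CPM in Gal4 controls, and 1 to 3 counts in each S2 library. These differences were tested on all 12 libraries. Groups of 3 libraries were not examined for single values far from the rest.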

How the results depend on the processing

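In Atx2 RNAi brains, where 1 of the 9 genes was called, DESeq2 called 2 (AGO1, gw), upper quartile scaling 0, no filter 0, the replicate block 0 and library size alone 1 (Dcp1, higher, in place of gw), and leaving out libraries gave 0 to 1. In S2 libraries labelled Atx2 RNAi the count was 3, and 2 with DESeq2 (Ge-1, tral), 2 with upper quartile scaling (Ge-1 lower, Edc3 higher), 4 with library size alone (Edc3 higher in addition) and 0 to 3 when libraries were left out. In the interaction 0 became 2 with DESeq2 (AGO1, gw) and 2 with library size alone (Dcp1, Ge-1), and stayed 0 with libraries left out. Brain against S2 gave 7 to 9 of 9. Counting TRIBE listings in either library gave 3 members in place of 0, and a single library gave 1 to 2.

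Some log2 fold changes, not only those near 0, changed sign. In brain these were Ge-1 (-0.036 with DESeq2, -0.073 to 0.11 with libraries left out), and with library size alone pcm (0.076), Edc3 (0.021) and 4E-T (0.13), of which Edc3 had -0.35 to 0.057 and 4E-T -0.25 to 0.092 with libraries left out. In S2 cells they were Dcp1 (0.0061), 4E-T (0.0036) and AGO1 (0.023) with upper quartile scaling, and AGO1 (0.0048) with library size alone. With libraries left out, 4E-T had -0.069 to 0.053 and AGO1 -0.032 to 0.040. In the interaction pcm changed sign with DESeq2 (-0.092) and ranged from -0.028 to 0.066 with libraries left out, and Dcp2 (0.020), tral (0.095) and 4E-T (0.14) changed with library size alone. Dcp2 ranged from -0.34 to 0.088 and 4E-T from -0.18 to 0.17 with libraries left out. Without Gal4 control replicate 1, an alternative chosen after seeing the data, the interaction was -0.028 for pcm and 0.078 for 4E-T. In brain against S2, Dcp1 was 0.19 with DESeq2, and Edc3 was -0.027 with upper quartile scaling. With library size alone Edc3 was called lower (-0.29, edgeR adjusted p = 0.0231), where the main fit called it higher (0.31, 0.0284). The causes were not tested.

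Calls over all genes also moved. In brain 1712 were lower and 2120 higher, against 935 lower with library size alone, 973 lower and 1157 higher without replicate 2, 478 lower and 853 higher without replicate 3, and 1388 higher without Atx2 RNAi replicate 1. The lower share of brain calls was 44.7%, and 23.1% with library size alone. In S2 cells 1116 were lower and 1091 higher, against 613 higher with DESeq2, and 340 lower and 327 higher without replicate 1. In S2 cells upper quartile scaling gave 35.4% of calls as lower, against 50.6%. In the interaction 14.9% of calls were lower with library size alone and 52.2% with DESeq2, against 34.8%, with 1471 lower with DESeq2, 441 with library size alone and 537 with the block, against 864. Higher interaction calls were 2520 with library size alone, against 1618, and leaving out replicate 2 gave 257 lower and 674 higher, replicate 3 288 lower and 659 higher. In brain against S2 that share was 58.1% with library size alone and 39.5% with DESeq2, against 47.9%. The replicate numbers did not pair the samples: correlations of same-numbered deviations were -0.207 to -0.0642 in brain and -0.0705 to 0.0498 in S2. With the block, brain calls over all genes were 2851, against 3832, and S2 calls 1926, against 2207.

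With 3 libraries a group, the width of the intervals given for each gene limits the precision of its difference.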
